A study of Mus musculus with 4 samples.

Results

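Cell cycle and proliferation genes were followed in adipocyte preparations from perigonadal white fat. The set was a list of 38 symbols, and all 38 were found among the 55487 genes of the deposited table. It held 24 genes that act in mitosis, 12 that act at entry into S phase or in DNA replication, and 2 that act in G1 or in arrest, Ccnd1 and Cdkn1a. The animals were male littermate mice on a standard diet, of genotype CKO or WT (control), with 2 sequencing libraries for each genotype. The labels do not spell out CKO, and which gene was deleted, in which cells, and at what age are details not given in the sources used. The study's title speaks of BLIMP1, a transcription factor encoded by Prdm1, and of macrophages. Nothing in the labels says whether each library came from its own mouse, so the p-values reflect library-to-library spread, which may be technical. In what follows, reads are the whole counts recovered from the table, scaled reads are divided by a size factor for each library, and log2 changes are CKO minus WT on log2(scaled reads + 1).

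Most mature fat cells have left the cell cycle, while their progenitors, blood vessel cells and macrophages of the tissue can divide. A dividing cell passes from G1 through S phase, when DNA is copied, to mitosis, when the copies are parted. Genes of the G1/S border are switched on by E2F factors, and many genes of mitosis carry CCAAT boxes and a cell cycle genes homology region (CHR), through which the DREAM and MuvB complexes repress them in resting cells and activate them late in the cycle.

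The upstream sequence of the members with the largest differences is shown for this reason, 3 from each of the mitosis and S phase classes. Each is the 250 bases before the RefSeq start on GRCm38.p6, read 5′ to 3′ on the strand of the gene. Birc5 lies at chr11:117848987-117849236 (plus strand), Top2a at chr11:99024190-99024439 (minus), Ccnb2 at chr9:70421555-70421804 (minus), Rrm2 at chr12:24708004-24708253 (plus), Mcm5 at chr8:75109259-75109508 (plus) and Mcm6 at chr1:128359706-128359955 (minus). Capitals mark matches on either strand to 3 kinds of motif. The CHR was searched as TTTGAA. The CCAAT box was searched as CCAAT. For E2F, TTCCCGC was searched first. The variant TTGGCGC was also taken as an E2F match. Likewise TTCGCGC was taken, as was the variant TTGCCGC.
Birc5: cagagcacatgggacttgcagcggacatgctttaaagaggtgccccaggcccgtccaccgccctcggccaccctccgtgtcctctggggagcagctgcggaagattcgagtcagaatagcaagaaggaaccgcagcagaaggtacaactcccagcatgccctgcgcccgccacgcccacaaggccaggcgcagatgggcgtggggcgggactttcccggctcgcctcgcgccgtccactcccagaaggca
Top2a: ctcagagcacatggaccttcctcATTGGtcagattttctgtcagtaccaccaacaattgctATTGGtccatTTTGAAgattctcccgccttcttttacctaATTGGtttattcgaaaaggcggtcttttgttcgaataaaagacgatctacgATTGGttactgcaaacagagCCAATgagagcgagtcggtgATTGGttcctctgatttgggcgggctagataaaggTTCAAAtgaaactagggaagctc
Ccnb2: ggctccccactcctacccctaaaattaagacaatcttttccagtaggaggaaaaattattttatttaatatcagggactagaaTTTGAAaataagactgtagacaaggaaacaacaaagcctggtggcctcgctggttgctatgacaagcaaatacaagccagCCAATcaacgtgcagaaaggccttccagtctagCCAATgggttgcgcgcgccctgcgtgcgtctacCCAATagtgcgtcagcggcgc
Rrm2: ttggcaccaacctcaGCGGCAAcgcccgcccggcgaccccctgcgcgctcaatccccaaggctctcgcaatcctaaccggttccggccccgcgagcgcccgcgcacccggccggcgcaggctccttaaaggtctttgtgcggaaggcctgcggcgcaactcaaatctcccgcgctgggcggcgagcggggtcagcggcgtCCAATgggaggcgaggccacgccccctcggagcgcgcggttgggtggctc
Mcm5: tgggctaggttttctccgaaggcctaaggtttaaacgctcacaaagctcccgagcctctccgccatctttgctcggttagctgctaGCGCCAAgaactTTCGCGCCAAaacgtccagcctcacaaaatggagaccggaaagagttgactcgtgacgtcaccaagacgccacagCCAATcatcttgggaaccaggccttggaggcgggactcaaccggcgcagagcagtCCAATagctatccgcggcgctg
Mcm6: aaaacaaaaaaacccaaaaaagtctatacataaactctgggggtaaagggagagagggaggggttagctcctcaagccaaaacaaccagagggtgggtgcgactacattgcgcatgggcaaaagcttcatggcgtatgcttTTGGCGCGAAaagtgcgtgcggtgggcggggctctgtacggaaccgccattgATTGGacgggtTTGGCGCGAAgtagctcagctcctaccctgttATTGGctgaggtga
Top2a had 6 CCAAT matches and 2 CHR matches, the nearer CHR match 23 to 18 bases before the start. Ccnb2 had 3 CCAAT matches and 1 CHR match. Mcm6 had 4 E2F matches, which pair up on opposite strands, and Mcm5 had 3. In these windows no base lay in matches to 2 of the 3 kinds of motif. E2F matches on opposite strands overlapped in Mcm6, at 109 to 103 with 106 to 100 and at 46 to 40 with 43 to 37. In Mcm5 those at 152 to 146 and 149 to 143 bases before the start overlapped. Birc5 had no match in this window.

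Of the members, 32 had an entry in the RefSeq table. Among the mitosis members, 8 of 20 (40%) held a CHR match, 18 of 20 (90%) a CCAAT match and 3 of 20 (15%) an E2F match. Among the S phase members these were 1 of 11 (9.09%), 8 of 11 (72.7%) and 5 of 11 (45.5%). Of all 27025 genes in the table, 18.3% held a CHR match, 37.5% a CCAAT match and 9.01% an E2F match. These shares describe letters and no test was made of them.

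WT replicate 2 differed from the rest in its cell type markers, and the part of this in the values below was not tested. It had the most macrophage and the fewest adipocyte marker reads: Adgre1, which encodes the macrophage protein F4/80, had 1384 and 3106 reads in CKO replicates 1 and 2, 8071 in WT replicate 1 and 31880 in WT replicate 2, while Adipoq, which encodes adiponectin, had 71437, 43436, 44425 and 7561. Recovered totals ran from 24152081 to 26742547 reads. Prdm1 had 152 and 386 reads in CKO and 514 and 1135 in WT, a log2 change of -1.79 (SE 0.59; limma adjusted p 0.459), and since the part of the gene that is counted is not given, this does not check the labels. Defining adipocyte markers were found in all libraries (10 of 10 tested). Of 16871 genes tested, 0 passed an adjusted p of 0.05 in limma, with 1224 lower and 566 higher in CKO at an unadjusted p under 0.05. With voom weights 0 passed, with 1147 lower and 586 higher at the unadjusted threshold.

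Every member was lower in CKO than in WT by its mean, and none passed the adjusted threshold. Of the 38 members, 38 had a log2 change below 0 (48.9% of all genes tested did), with a median of -2.09 against 0.015 over all genes. For 34 of the 38, both CKO libraries lay below both WT libraries (26.8% of all genes), and for 0 both lay above (23.9%). In limma, 15 of the 38 had an unadjusted p under 0.05, all lower in CKO (7.26% of all genes in that direction, against 3.35% in the other), and 0 had an adjusted p under 0.05 (0% of all genes). All 38 members passed the filter on low values, a mean deposited log2 of at least 3. In 33 of the 38, the libraries stood in 1 order, from CKO replicate 1 through CKO replicate 2 and WT replicate 1 to WT replicate 2, an order that 17.0% of all genes tested had. WT replicate 2 was the highest library for 38 of 38 members, as it was for 6748 of the 16871 genes tested. In bulk RNA, fewer cells of a kind and less RNA per cell cannot be told apart.

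**Figure D1:**
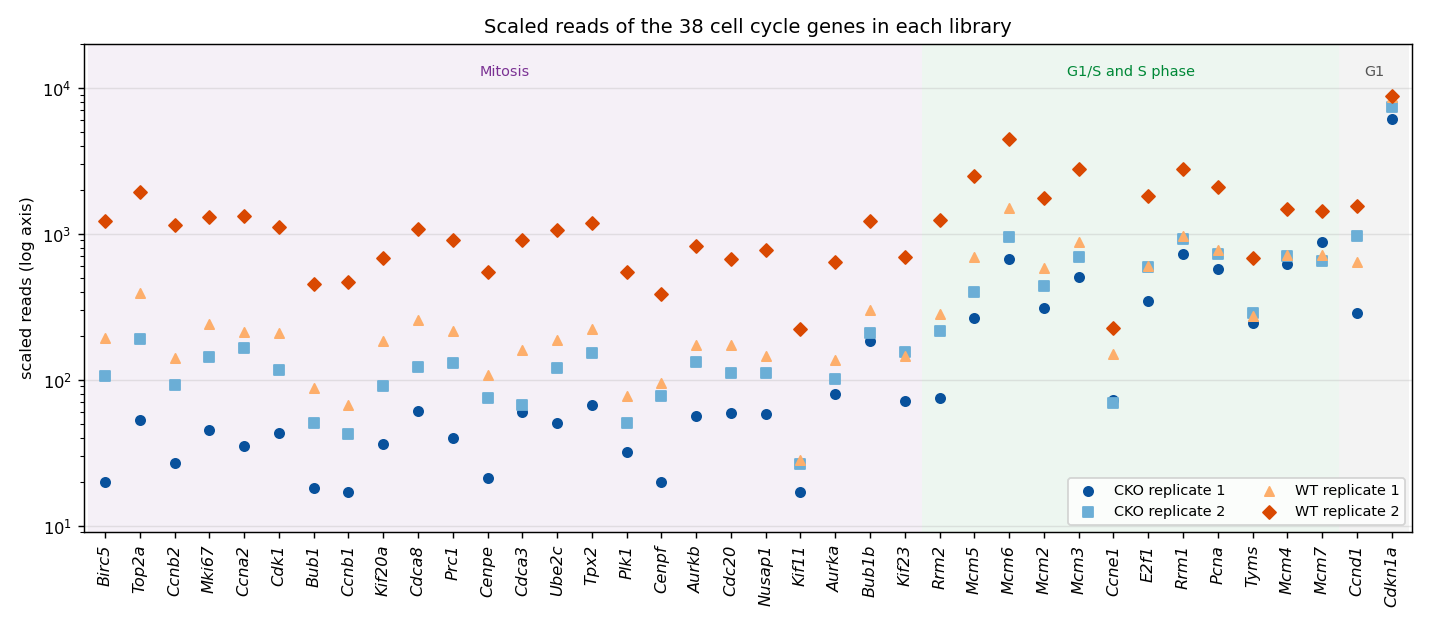
Scaled reads (log axis) of each of the 38 genes, 1 symbol for each of the 4 libraries, grouped by class and ordered within a class by log2 change. WT replicate 2 is the highest for all 38 genes, and the mitosis genes spread over a wider range than the S phase genes.

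The genes of mitosis made up the larger differences. All 24 were lower in CKO, from -3.36 for Birc5 to -1.59 for Kif23, with a median of -2.57. Of these, 20 had a log2 change below -2, as 4.53% of all genes tested had, and 12 had an unadjusted p under 0.05 in limma (7.26% of all genes in that direction). That count was 4 with voom weights and 18 with library weights. In those fits 1147 and 1243 of the 16871 genes tested were lower at that threshold. The count changed as well with any library left out, and so did the count over all genes tested. Both CKO libraries lay below both WT libraries for 23 of 24 (26.8% of all genes), the exception being Kif23. Per kilobase of exon, mean scaled reads in WT ran from 15.7 for Cenpf to 422 for Ccnb2, and in CKO from 2.90 for Kif11 to 45.8 for Bub1b.

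Top2a and Mki67 are the usual markers of dividing cells. Top2a encodes the topoisomerase that untangles chromosomes, and had 53 and 211 reads in CKO replicates 1 and 2 and 378 and 1828 in WT replicates 1 and 2. Scaled reads averaged 122 ± 97.6 in CKO against 1157 ± 1082 in WT (SD, n = 2), which gave a change of -3.09 on the log2 scale (SE 0.97; limma adjusted p 0.459). Mki67, which encodes the proliferation antigen Ki-67, had 45 and 157 reads in CKO and 233 and 1239 in WT, a log2 change of -2.79 (SE 0.98; limma adjusted p 0.459). For both genes the CKO libraries lay below both WT libraries (26.8% of all genes tested), and the SD of the WT group was close to its mean.

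The mitotic kinase and its cyclins showed the same arrangement of libraries. Cdk1, the kinase that drives entry into mitosis, had 43 and 128 reads in CKO and 200 and 1056 in WT (log2 change -2.75, SE 0.94). Ccnb1 and Ccnb2, its B-type cyclins, had 17 and 47 against 65 and 442 reads, and 27 and 101 against 135 and 1096 reads. Ccna2, the cyclin of S phase and G2, had 35 and 181 reads in CKO and 203 and 1258 in WT. The log2 changes of Ccnb1, Ccnb2 and Ccna2 were -2.67, -2.99 and -2.78, each with a limma adjusted p of 0.459. Between the WT replicates alone, Ccnb2 differed 8.22-fold, more than any other member.

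Genes of the chromosomal passenger complex, which corrects the attachment of chromosomes, included the member with the largest difference. Birc5, which encodes survivin, had 20 and 117 reads in CKO and 186 and 1158 in WT, a log2 change of -3.36 (SE 1.18; limma adjusted p 0.459). Cdca8, which encodes borealin, had 61 and 134 reads against 247 and 1032 (log2 change -2.60, SE 0.79), the smallest unadjusted p of the mitosis members at 0.0222 in limma. Aurkb, the kinase of the complex, had 56 and 147 against 166 and 786 (-2.11, SE 0.88). Its relatives among the mitotic kinases, Aurka of the spindle poles and Plk1, had log2 changes of -1.72 and -2.33. For all of these 5 genes both CKO libraries lay below both WT libraries (26.8% of all genes tested).

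Genes of the spindle checkpoint and of protein degradation were also lower in CKO by their means. Bub1 and Bub1b, kinases of the spindle checkpoint, had log2 changes of -2.68 and -1.63, and Bub1b had 184 and 229 reads in CKO where WT had 287 and 1170. Cdc20 activates, and Ube2c supplies ubiquitin to, the complex that ends mitosis. Their log2 changes were -2.06 and -2.52. Cdca3, a trigger of mitotic entry, was nearly level between the CKO libraries at 60 and 74 reads, with 154 and 858 in WT (-2.56, SE 0.86). The kinetochore proteins Cenpe and Cenpf were at -2.57 and -2.26.

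Among spindle motors and bundling proteins, separation of the groups was uneven. Kif20a, a motor of cytokinesis, was at -2.61 (SE 0.80) with 36 and 100 reads in CKO and 178 and 651 in WT. Kif23, another motor of cytokinesis, had 71 and 172 reads in CKO and 140 and 662 in WT, so that WT replicate 1 lay below CKO replicate 2 in scaled reads (0.933-fold). Kif11, which pushes the spindle poles apart, was the lowest member in reads, at 17 and 29 in CKO and 27 and 211 in WT (-1.86, SE 1.05). Tpx2, Nusap1 and Prc1, which organise spindle microtubules, were at -2.34, -2.05 and -2.60. For Kif11 the middle libraries could not be told apart by counting error alone, with a WT replicate 1 to CKO replicate 2 ratio of 1.07 and a 95% interval of 0.608 to 1.87.

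**Figure D2:**
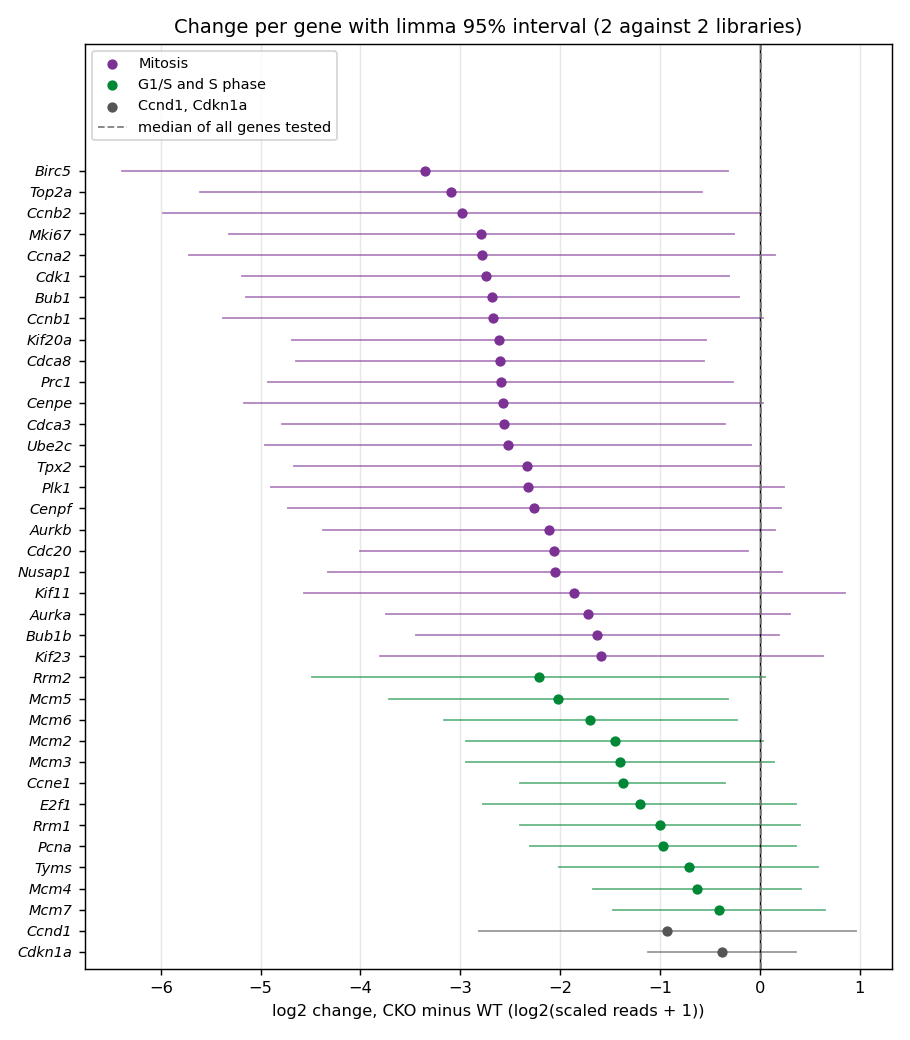
Log2 change, CKO minus WT, of each of the 38 genes with its 95% interval from limma (2 libraries against 2), coloured by class; the dashed line is the median of all genes tested. All points lie left of 0, mitosis genes between -3.36 and -1.59 and S phase genes between -2.22 and -0.41, and many intervals reach past 0.

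Genes of S phase entry and replication were lower in CKO by smaller amounts. All 12 had a log2 change below 0, with a median of -1.29, and 2 were below -2 (4.53% of all genes tested). Both CKO libraries lay below both WT libraries for 10 of 12 (26.8% of all genes), the exceptions being Tyms and Mcm7. In limma, 3 of 12 had an unadjusted p under 0.05 (7.26% of all genes in that direction), namely Mcm5, Mcm6 and Ccne1. That count was 3 with voom weights and 5 with library weights. In those fits 1147 and 1243 of the 16871 genes tested were lower at that threshold. The count changed as well with any library left out, and so did the count over all genes tested. Mean scaled reads per kilobase of exon in WT ran from 70.5 for Ccne1 to 640 for Mcm6, and in CKO from 26.5 for Ccne1 to 271 for Pcna.

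The MCM proteins form the ring that unwinds DNA at the replication fork, 1 of each kind per ring, and the log2 changes of their transcripts ran from -2.02 to -0.41. Mcm5 had 264 and 437 reads in CKO and 668 and 2368 in WT, a log2 change of -2.02 (SE 0.66; limma adjusted p 0.459). Mcm6, with 671 and 1052 against 1452 and 4250 reads, was at -1.70 (SE 0.57). Mcm2 and Mcm3 were at -1.45 and -1.40. Mcm4, with 623 and 777 reads in CKO and 689 and 1397 in WT, was at -0.63 (SE 0.40). Mcm7 was at -0.41 (SE 0.41), with 878 and 724 reads in CKO, where replicate 1 was above WT replicate 1 at 687, and 1356 in WT replicate 2. The intervals of Mcm5 (-3.72 to -0.32) and Mcm7 (-1.47 to 0.65) overlap, and the difference between subunits was not tested. Mcm7 overlaps genes on the opposite strand and holds microRNA genes, as 15 of the 38 members overlap a gene on the opposite strand. Whether counting used strand is not stated in the sources used, so such reads may be shared.

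Enzymes that supply nucleotides had log2 changes from -2.22 to -0.71, with overlapping intervals, and the difference between them was not tested. Rrm2, the cell cycle-bound subunit of ribonucleotide reductase, had 75 and 237 reads in CKO and 273 and 1185 in WT, a log2 change of -2.22 (SE 0.88; limma adjusted p 0.459). Rrm1, the large and more stable subunit, had 728 and 1013 against 930 and 2648, a log2 change of -1.002 (SE 0.54). Tyms, which makes thymidylate, had 243 and 314 reads against 263 and 650 (-0.71, SE 0.50), and WT replicate 1 lay below CKO replicate 2 in scaled reads (0.960-fold). Rrm2, Mcm5 and Mcm6 were the S phase members whose log2 change lay within the range of the mitosis members.

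Pcna, the sliding clamp of replication, had 577 and 797 reads in CKO and 744 and 1978 in WT, a log2 change of -0.97 (SE 0.52). E2f1, the transcription factor of the G1/S border, had 344 and 657 against 581 and 1718 (-1.20, SE 0.61). Ccne1, the cyclin that starts S phase, had 72 and 76 reads in CKO and 145 and 214 in WT. It was the member with the smallest unadjusted p, 0.0186 in limma (adjusted p 0.459), at a log2 change of -1.37 (SE 0.40). Its CKO libraries differed little, at 70.5 ± 2.32 scaled reads (SD, n = 2), against 188 ± 52.6 in WT, and the WT replicates differed 1.49-fold, the smallest such gap of the S phase members.

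Ccnd1 and Cdkn1a act before S phase. Ccnd1, the cyclin that couples growth signals to the cycle, had 284 and 1063 reads in CKO and 613 and 1481 in WT, so the groups overlapped (log2 change -0.93, SE 0.73; limma adjusted p 0.581). Cdkn1a encodes the CDK inhibitor p21, a target of p53 that is also high in many resting cells. It was the most abundant member per kilobase of exon, at 2455 scaled reads in WT and 1896 in CKO. Its reads were 6120 and 8108 in CKO and 8291 and 8405 in WT (log2 change -0.38, SE 0.29; limma adjusted p 0.568). The WT replicates differed 1.03-fold for Cdkn1a, against 3.70-fold to 8.22-fold for the mitosis members.

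Mitosis and S phase members were then set against each other within each library, where scaling cancels. The mitosis members summed to 1169 reads in CKO replicate 1, or 221 for each 1000 reads of S phase members (95% exact binomial interval 207 to 236, counting error only). That ratio was 396 (379 to 414) in CKO replicate 2, 510 (491 to 530) in WT replicate 1 and 918 (901 to 936) in WT replicate 2. The 4 intervals were apart, and the replicates of 1 group differed more (1.79-fold in CKO, 1.80-fold in WT) than CKO replicate 2 and WT replicate 1 (1.29-fold).

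Taken gene by gene, with each gene centred on its mean over the libraries, the median of the mitosis members minus that of the S phase members was -1.12 and -0.24 in CKO and 0.21 and 1.10 in WT. CKO minus WT was -1.33 on the log2 scale. With 2 libraries against 2 an exact permutation test cannot give a p below 0.3333, so none was run. Without WT replicate 2 this difference was -0.81, and without CKO replicate 1 it was -0.84.

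The pairs of libraries show where the classes part. WT replicate 2 exceeded WT replicate 1 by a median of 5.21-fold over mitosis members (3.70 to 8.22) and 2.92-fold over S phase members, from 1.49-fold for Ccne1 upward. CKO replicate 2 exceeded CKO replicate 1 by medians of 2.44-fold and 1.32-fold. Between the middle libraries, WT replicate 1 exceeded CKO replicate 2 by medians of 1.55-fold and 1.17-fold. That ratio lay above 1 for 23 of 24 mitosis members and 11 of 12 S phase members (51.1% of all genes tested). It did so beyond counting error for 21 of 24 and 6 of 12, a share that was not computed over all genes. These ratios compare 2 libraries and not the genotypes.

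Most other genes of mitosis and replication, taken from lists of their pathways, were also lower in CKO by their means. The members' order of libraries was held by 37 of 49 other mitosis genes and 23 of 46 other replication genes (17.0% of all genes tested). Of 49 other mitosis genes tested, 48 were lower in CKO (48.9% of all genes), 39 had both CKO libraries below both WT libraries (26.8%) and 13 had an unadjusted p under 0.05, all lower (7.26%), with a median of -2.09. The 3 of smallest p were Kif4, a chromosome-bound motor, at -3.34, Tacc3, a spindle protein, at -2.01, and Dlgap5, at -3.39 (limma adjusted p 0.459 each). Pttg1, which encodes securin, was the gene of this list that was higher in CKO, with 1392 and 1477 reads against 1144 and 795 (log2 change 0.45); it is named here after its value was seen. Of 46 other replication genes, 42 were lower and 4 higher, with a median of -0.85. Both CKO libraries lay below both WT libraries for 29 (26.8% of all genes). They lay above for 1 (23.9%), Ung at 1.10, also named after its value was seen. In limma, 9 had an unadjusted p under 0.05, all lower (7.26%). Here the 3 of smallest p were E2f8, a repressor of the E2F family, at -4.16, Mcm10 at -3.21, and Gmnn, which encodes the licensing inhibitor geminin, at -2.20 (limma adjusted p 0.459 each). No gene of any of these lists passed the adjusted threshold.

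Among regulators of G1 and targets of p53, counts were near those over all genes. Of 19 G1 regulators and CDK inhibitors tested (Cdkn2a, at 2 to 5 reads, was not), 11 were lower and 8 higher (48.9% of all genes were lower), with a median of -0.06. Of these, 2 had an unadjusted p under 0.05 in limma, both lower (7.26% of all genes), and 4 had both CKO libraries below both WT libraries (26.8% of all genes). The 3 of smallest p were E2f3, at -1.14, Cdk6, a kinase partner of the D-type cyclins, at -1.64, and E2f2, at -1.32. Of 20 p53 targets, 11 were lower and 9 higher (48.9% of all genes were lower), with a median of -0.10. Of these, 1 had an unadjusted p under 0.05 in limma (7.26% of all genes), and 6 had both CKO libraries below both WT libraries (26.8%). Sesn1, Mdm2, the ubiquitin ligase that removes p53, and Gadd45a had the smallest p in that list, at -1.02, -0.89 and -0.58. None of these 6 genes had an adjusted p under 0.05 in limma.

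**Figure D3:**
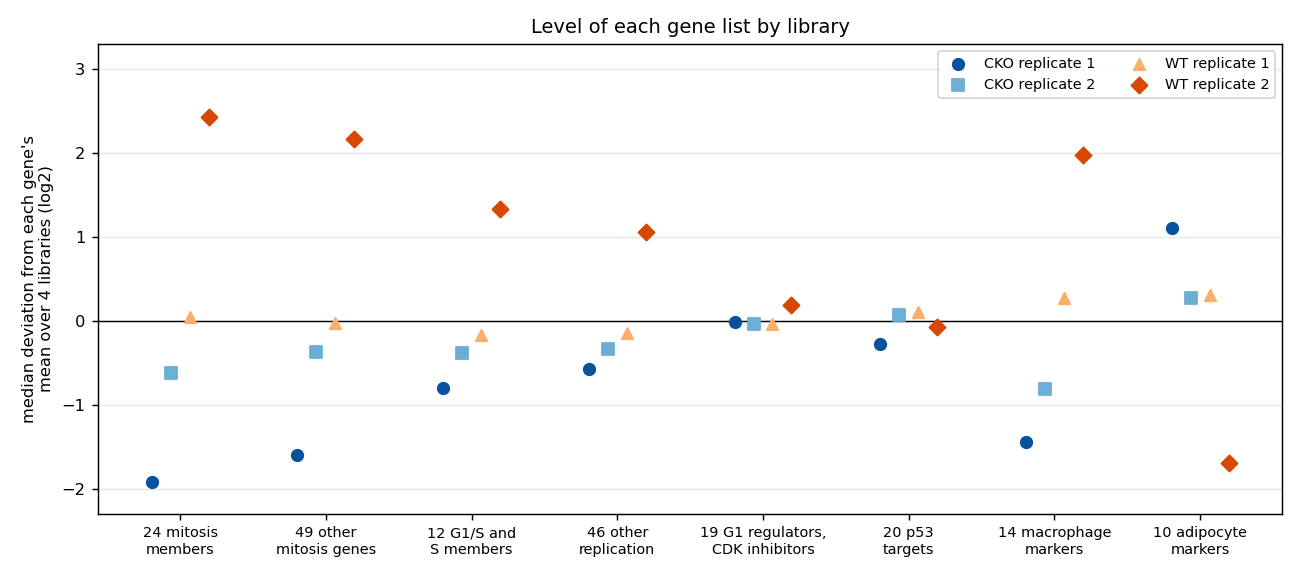
Median, over the genes of each list, of the deviation from the gene's mean over the 4 libraries (log2 scaled reads), 1 symbol per library. Mitosis genes span from -1.92 to 2.43, S phase members from -0.80 to 1.33, and G1 regulators and p53 targets lie between -0.28 and 0.19. Macrophage markers stand in the same order as the mitosis genes, with adipocyte markers highest in CKO replicate 1 and lowest in WT replicate 2.

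Macrophage markers stood in the same order of libraries as the members. The 14 markers summed to 46350 and 96427 scaled reads in CKO and 195550 and 581959 in WT. Of them, 13 were lower in CKO (median log2 change -2.29) and 12 had both CKO libraries below both WT libraries (26.8% of all genes), and none was at 0. Cd68, a lysosomal protein of macrophages, had 1773 and 6083 reads in CKO and 14315 and 54245 in WT. Their part in the differences of the cell cycle genes was not tested.

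Set against the sum of these markers, the mitosis members were closer to level than on their own, and the direction depended on the marker used. They had 25.3 and 27.3 reads per 1000 macrophage marker reads in CKO replicates 1 and 2, and 21.2 and 36.6 in WT replicates 1 and 2. The groups overlapped on this measure, and CKO minus WT was -0.086 on the log2 scale against a pooled SD between replicates of 0.40. The mitosis sum itself ranged 18.2-fold over the libraries, the macrophage sum 12.6-fold, and their ratio 1.73-fold. Gene by gene, reads per Adgre1 read ranged over the libraries by a median of 2.11-fold for mitosis members (1.44 for Cdca8 to 3.74 for Bub1b). Against Adgre1 alone the log2 difference was 0.66, with both CKO libraries above both WT libraries, and the direction was thus opposite.

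S phase members did not keep level with the macrophage markers. They had 114 and 68.9 reads per 1000 macrophage marker reads in CKO and 41.6 and 39.9 in WT, higher in both CKO libraries. Per Adgre1 read they ranged by a median of 5.47-fold over the libraries, from 2.26 for Rrm2 and 2.57 for Mcm5 to 14.9 for Mcm7. Rrm2 and Mcm5 were also the S phase members with the largest differences between CKO and WT. Both measures use the same reads, and Adgre1 itself had a log2 change of -3.08, so this is not a separate result. Cdkn1a ranged 16.8-fold per Adgre1 read.

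**Figure D4:**
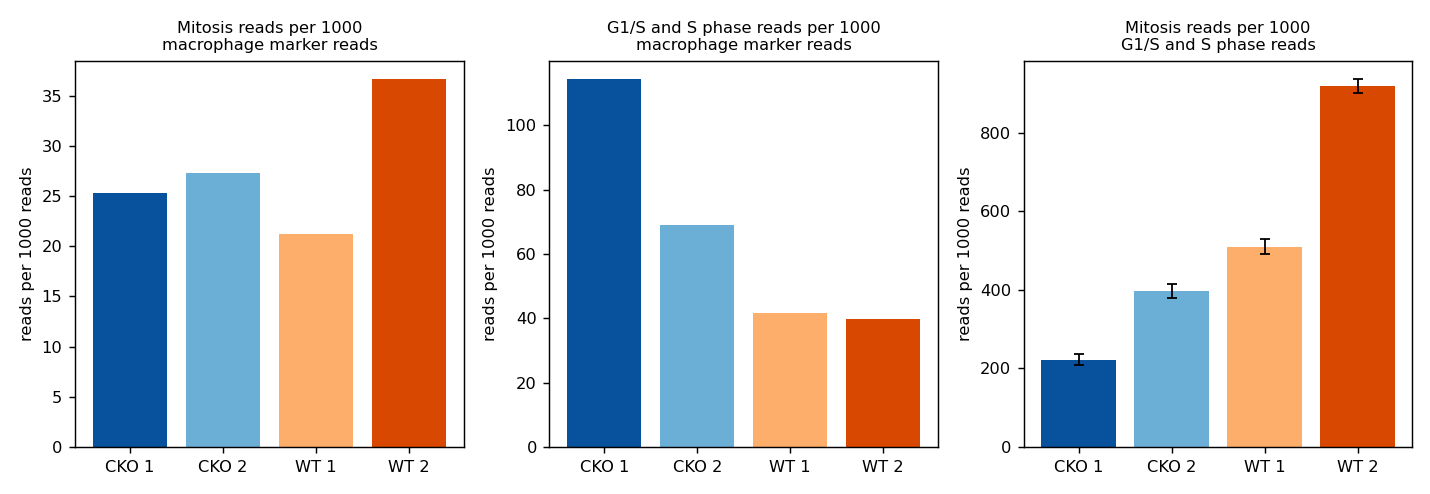
Bars from 0 give, for each library, summed reads of mitosis members per 1000 macrophage marker reads (left), of S phase members per 1000 macrophage marker reads (middle) and of mitosis members per 1000 S phase member reads (right, with 95% exact binomial intervals for counting error). The left ratio lies between 21.2 and 36.6 with overlapping groups, the middle one is higher in CKO and the right one is higher in WT.

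Markers of other cell types stood in various orders. The 9 markers of T and NK cells summed to 107 and 189 scaled reads in CKO and 394 and 290 in WT, with Cd8a at 0 in all libraries and Cd3e at 3 to 5 reads. Of these, 4 were tested, 2 lower and 2 higher in CKO, and 0 had the members' order of libraries. Erythroid progenitor markers, at 2211 and 2912 in CKO and 1621 and 1729 in WT, had Klf1 at 2 to 11 reads. Endothelial markers summed to 50853 and 76156 in CKO and 41773 and 15267 in WT. The sums for preadipocytes and fibroblasts were 24162 and 25983 in CKO and 27010 and 31602 in WT, but 5 of these 8 markers were lower and 3 higher in CKO, and 1 of 8 had the members' order of libraries. Mast cell and granulocyte markers had small sums, 168 and 198 in CKO and 307 and 424 in WT, with 1 of the 3 tested lower in CKO and 2 higher (median log2 change 0.48). Sums of adipocyte markers, at 1329980 and 847593 in CKO and 717880 and 218065 in WT, ran the opposite way. By single marker, 9 of 10 were higher in CKO and 1 was lower. Separation without overlap, with CKO the higher group, was seen for 5 of the 10 (23.9% of all genes). Their median deviation from the gene's mean was 0.27 in CKO replicate 2 and 0.31 in WT replicate 1, so the middle libraries did not keep the order of the sums. Red blood cell markers summed to 18880 and 30206 in CKO and 9082 and 3256 in WT. Small sums were found for mesothelium (154 to 254 over all libraries) and for epididymis and germ cells (4.21 to 85.2). Their part in the differences was not tested.

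Leaving out WT replicate 2 reduced the differences and kept their direction in 37 of 38 members, Mcm7 being at 0.079. The median was then -1.32 for mitosis members and -0.50 for S phase members, and 50.3% of all genes tested were below 0. Such fits take the single library left in a group to have the spread of the other group. In that fit 6 of 38 members had an unadjusted p under 0.05 in limma, all lower (4.84% of all genes). The medians without CKO replicate 1 came to -1.84 and -1.01, with 38 of 38 members below 0 (50.2% of all genes). Those without CKO replicate 2 were -3.17 and -1.47. Without WT replicate 1 they were -3.69 and -1.89, and 18 of 24 mitosis and 7 of 12 S phase members had an adjusted p under 0.05 in limma, all lower in CKO. Of all genes, 5.74% passed in that direction and 5.04% in the other. No other left-out library gave a member past the adjusted threshold.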

How the data were processed

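RNA of 4 adipocyte libraries was sequenced, 2 of CKO and 2 of WT mice. The submitters' processing notes name FastQC, the aligner STAR (2.7.5c) and the build GRCm38.p6. How reads were assigned to genes, and with what annotation, is not stated in the sources used. The authors deposited log2 values, 1 column per library, and label them normalised. Undoing the logarithm and subtracting 1 gave whole numbers within 0.01 for 100% of genes, with unequal totals, so the deposited log2 values are log2(reads + 1) without scaling. Reads were recovered by rounding, divided by size factors (0.998 and 1.10 for CKO, 0.963 and 0.951 for WT; median of ratios over 19847 genes) and taken to log2 with a pseudocount of 1, which understates fold changes of low genes. The 16871 genes with a mean deposited log2 of at least 3 were fitted with limma 3.58.1 in R 4.3.3 (eBayes with a trend, two-sided, Benjamini-Hochberg over all genes tested), with 2 residual and 2.92 prior degrees of freedom. As the deposited unit is log2, no count model was run. Replicate numbers only name libraries and pair nothing. The members, gene lists and tests were chosen with earlier results of these data known. Named are all members, the 3 genes of smallest p in each other cell cycle list, Adgre1, Cd68, Adipoq, defining markers, and for promoters the 3 members of largest change per class. Annotation is GENCODE M21 (99.3% of identifiers matched with their version), with exon lengths as the union of exons. The fit was tested on simulated reads with known changes, at within-group SDs of 0.2 and 0.4 on the log2 scale. It recovered 78% and 14% of 2-fold changes, and 100% and 99% of 8-fold changes. The pooled SD between replicates was larger here, at 1.35 for the median of mitosis members and 0.77 for that of S phase members. The simulation did not cover that spread. Intervals of read ratios cover counting error only. Alternatives were other filters, scalings, weights, priors, a pseudocount of 10 and each library left out.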

Additional observations from a re-analysis of the deposited data

How the results depend on the processing

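The number of genes past the adjusted threshold was 0 in every setting but those that leave out a library, where it ranged from 0 to 1820, the latter without WT replicate 1. Over the left-out libraries the median of the mitosis members ranged from -3.69 to -1.32, that of the S phase members from -1.89 to -0.50 (without WT replicate 2, a shift larger than the spread between replicates), and the difference between the classes from -1.76 to -0.81. Mitosis reads per macrophage marker read, as a log2 difference, ranged from -0.48 to 0.31 over the left-out libraries and turned in direction without WT replicate 2 (0.31) and with Adgre1 alone (0.66); the cause was not tested. With medians in place of sums it was -0.26. Of the values of single members under the alternatives, 505 kept their direction and side of the threshold, 25 were past it without WT replicate 1, and 1 turned in direction, that of Mcm7 without WT replicate 2 (0.079; range over the left-out libraries -0.91 to 0.079). No member turned under another scaling, and with unscaled values, where the median of all genes was 0.15, the mitosis and S phase medians were -2.43 and -1.16. With the stricter filter, Kif11 was not tested. Members with an unadjusted p under 0.05 were 15 in limma, 7 with voom weights and 23 with library weights. Of the 16871 genes tested, 1224, 1147 and 1243 were lower in CKO at that threshold in these fits. The count of members changed as well with any library left out, and so did the count over all genes tested. No paired analysis was possible because the labels give the libraries no numbers shared between the groups. At 17 to 29 reads in 3 libraries, Kif11 is limited by depth.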
